A study of Mus musculus with 8 samples.

Results

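The 44 genes described here act in mitosis, from entry into it by cyclin-dependent kinase 1 to the cut that separates the daughter cells. They were taken by symbol from the table of normalized counts, which held 24972 genes, and all 44 were found. The study measured RNA of untreated mouse embryonic fibroblasts, primary cultures grown from dissociated embryos, taken at embryonic day 14 and passaged 2 times. There were 8 libraries of 4 genotypes, with 2 libraries each. These were wild type (WT), cells with 1 of the 2 Tfam alleles lost (Tfam+/-), cells lacking both Zbp1 alleles (Zbp1-/-), and cells with both changes (Tfam+/-Zbp1-/-). Whether a genotype's 2 libraries stem from different embryos is not stated, so the p-values measure the spread between these libraries, which may be technical. For the same reason, differences between genotypes cannot be told apart from differences between embryos or cultures. The Tfam protein coats mitochondrial DNA and starts its transcription, and Zbp1 is a sensor of Z-form nucleic acids that acts in interferon signalling and cell death.

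Mitosis genes are transcribed late in the cell cycle and are nearly silent in resting cells, so in fibroblast cultures their messages are widely read as a sign of how many cells divide. In resting cells the DREAM complex, built on the MuvB core, represses them, and in dividing cells MuvB joins B-Myb and then FoxM1 to activate them. These complexes act through an element called CHR, often paired with CCAAT boxes that bind the factor NF-Y. In bulk RNA a smaller share of dividing cells and less message per dividing cell cannot be told apart.

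A promoter entry in RefSeq's GRCm38.p6 annotation, running from 250 bases before the annotated start to 50 after it, was matched for 36 of the 44 genes. The CHR was searched as TTTGAA and the CCAAT box as CCAAT, both on either strand, and matches of the 2 kinds can share no more than 1 end base. The 4 promoters shown are those of a kinase (Cdk1), 2 parts of the machinery that ends mitosis (Cdc20 and Ube2c) and a spindle motor (Kif11), because each holds both motifs close to its start. Each run is the 120 bases just before the annotated start, in the gene's own direction, with motif matches in capitals. A match on the other strand reads TTCAAA or ATTGG.
Cdk1, chr10:69352913-69353032, minus strand: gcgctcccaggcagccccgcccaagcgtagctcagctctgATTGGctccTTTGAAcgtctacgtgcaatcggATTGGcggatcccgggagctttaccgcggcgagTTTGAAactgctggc
Cdc20, chr4:118437344-118437463, minus strand: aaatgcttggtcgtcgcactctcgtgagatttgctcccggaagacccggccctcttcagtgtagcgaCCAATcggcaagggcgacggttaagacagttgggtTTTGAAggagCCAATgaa
Ube2c, chr2:164769809-164769928, plus strand: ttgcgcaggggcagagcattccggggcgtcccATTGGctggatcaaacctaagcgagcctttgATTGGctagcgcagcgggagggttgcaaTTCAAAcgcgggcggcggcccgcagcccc
Kif11, chr19:37376262-37376381, plus strand: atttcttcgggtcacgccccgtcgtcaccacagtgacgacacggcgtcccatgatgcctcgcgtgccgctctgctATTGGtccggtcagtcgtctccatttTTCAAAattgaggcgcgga

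A CHR match lay in 27 of the 36 promoters (75%), against 14.2% of the 10384 promoters matched among all genes tested. A CCAAT match lay in 27 of 36 (75%), against 43.1% of all. Both motifs together were in 24 of 36 (66.7%), against 5.97%. Within 50 bases of the start on either side, 24 of 36 had a whole CHR match (66.7%), against 3.77% of all genes tested. Among 55 matched promoters of other mitosis genes, a list given further below, 31 held a CHR (56.4%), and among 31 of S phase genes 4 did (12.9%). A TATA box, searched as TATAAA, was found in Kif2c alone of the 36 (2.78%), against 8.83% of all genes tested. These are matches of letters, not sites shown to be bound.

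**Figure D1:**
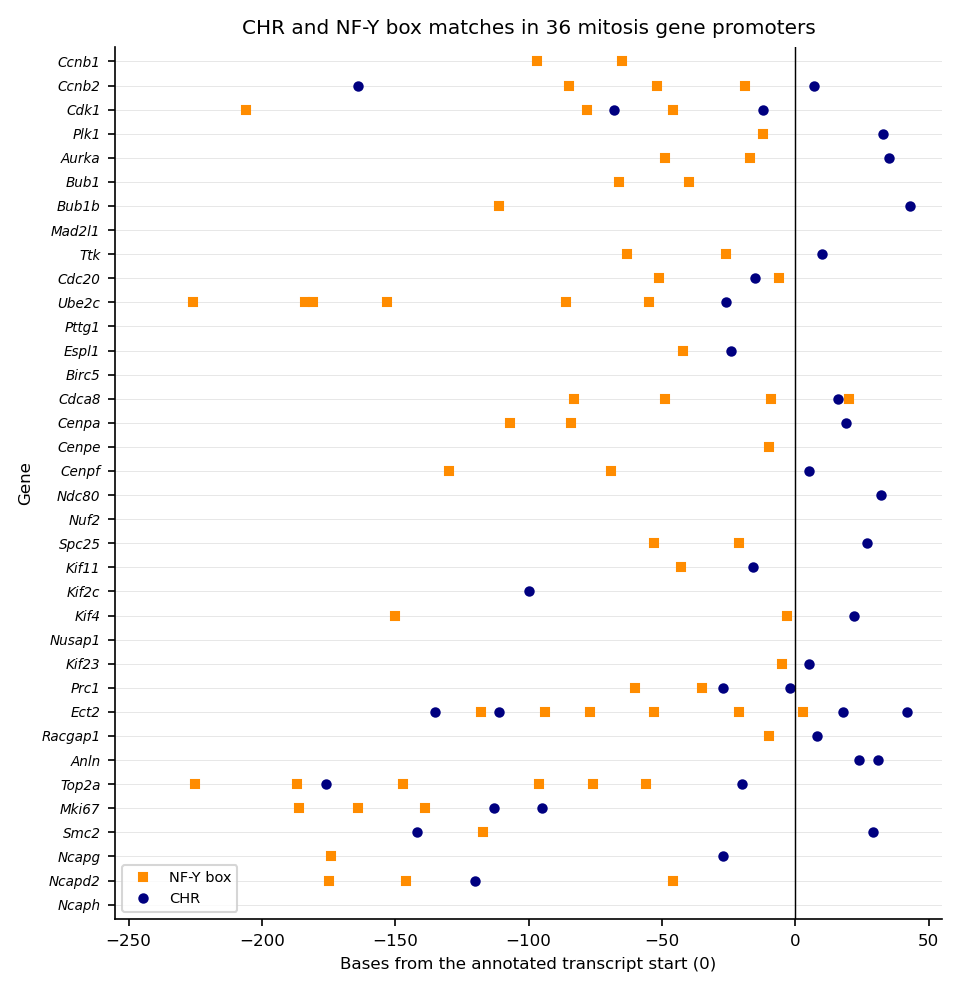
Matches to the CHR (circles) and to the CCAAT box, the NF-Y box of the key (squares), in the promoters of 36 mitosis genes. The horizontal axis is the distance in bases from the annotated transcript start, and each row is a gene, with all its promoter entries drawn on 1 row. CHR matches gather near the start, and 24 of the 36 genes have one within 50 bases of it.

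Per library, normalized counts summed to between 16752835 and 18303036, and 16051 to 16261 genes were above 0. All 11 fibroblast markers fixed for the check (collagens, Vim, Pdgfra and others) were expressed, with sums of 500781 to 737258. Tfam, the check of the first label, stood at 629 and 610 (WT), 278 and 365 (Tfam+/-), 675 and 471 (Zbp1-/-) and 424 and 375 (Tfam+/-Zbp1-/-). Zbp1 was at 64.6 and 69.8 in Tfam+/- and between 0.86 and 7.34 in the other 6 libraries, WT included, so it separates the null libraries from Tfam+/- but not from WT.

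The libraries differed in ways that bear on every result below. Tfam+/- replicate 1 and Zbp1-/- replicate 2 stood apart from the other 6 libraries in the same way. The median absolute log2 difference between the 2 libraries of a genotype over the 44 genes was 0.046 for WT and 0.047 for Tfam+/-Zbp1-/-, against 0.28 for Tfam+/- and 0.30 for Zbp1-/-. Over all genes, in the same order, it was 0.070, 0.065, 0.35 and 0.32. Scaling differed too: on the authors' scale the median of all 13267 genes tested was higher by 0.11 to 0.14 log2 in each comparison that set cells without Zbp1 against cells with it, and TMM rescaling (trimmed mean of M-values) removed this shift.

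The difference between the shifted library and its partner followed the base composition of the transcripts. GC content of the 44 transcripts ran from 39.7% (Smc2) to 56.1% (Espl1), with a median of 46.9%, against 50.02% over all genes. Across the 44 genes, Spearman's rho of GC with the difference was 0.91 in Tfam+/- (replicate 1 minus 2) and 0.89 in Zbp1-/- (replicate 2 minus 1). It was 0.003 in WT and -0.11 in Tfam+/-Zbp1-/-. Over 12733 genes with a GC value it was 0.81 and 0.77 in the former pair of genotypes and 0.06 and 0.02 in the latter pair. These are descriptions across genes of the same libraries, which are not independent replicates. Of the 22 mitosis genes of lowest GC, 21 were lower in the shifted library of each genotype. Of the 22 of highest GC, 5 were lower in the shifted Tfam+/- library and 4 in the shifted Zbp1-/- library. Fitted as 1 term shared by both shifted libraries, the shift was called lower in 23 members, against 34.2% of all genes, and higher in 12, against 31.1%. It was most negative in the condensin genes Ncapg (-1.05 log2) and Smc4 (-0.98) and most positive in Cdc20 (0.51) and Plk1 (0.40). Whether base composition itself made the shift was not tested.

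**Figure D2:**
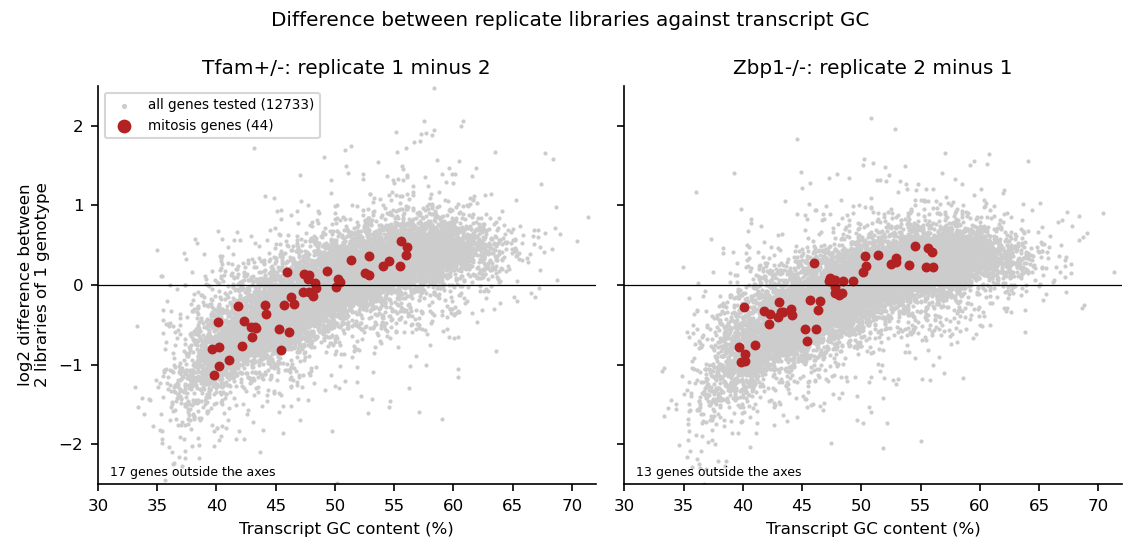
Log2 difference between the 2 libraries of Tfam+/- (left) and of Zbp1-/- (right) against transcript GC content in percent. Grey points are all genes tested with a GC value (12733) and red points the 44 mitosis genes. Mitosis genes of low GC lie lowest, down to -1.13 and -0.97, and those of high GC highest, up to 0.56 and 0.49, along the course of all genes.

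The 3 genes with the largest mean absolute change over the 8 comparisons were Ect2, Ncapg and Smc4, all of low GC. Ect2, a RhoA activator that sets the plane of the cleavage furrow (chr3:27097222-27154253), stood at 1252 and 1223 normalized counts (WT), 649 and 1116 (Tfam+/-), 965 and 529 (Zbp1-/-) and 1438 and 1377 (Tfam+/-Zbp1-/-). Its lowest levels were those of the shifted libraries, and the Tfam+/-Zbp1-/- levels lay above all others. Ncapg, a condensin I subunit (chr5:45669891-45700547), stood at 968 and 1061 (WT), 481 and 1056 (Tfam+/-), 840 and 429 (Zbp1-/-) and 1205 and 1124 (Tfam+/-Zbp1-/-). Smc4, an ATPase subunit of condensin (chr3:69004738-69034623), stood at 3425 and 3615 (WT), 1710 and 3462 (Tfam+/-), 3283 and 1700 (Zbp1-/-) and 4188 and 4018 (Tfam+/-Zbp1-/-). For both condensin genes the shifted libraries were far below the others, and the Tfam+/-Zbp1-/- libraries were again the highest. The values of other genes given per library below were chosen after their values were seen, as examples of each role.

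**Figure D3:**
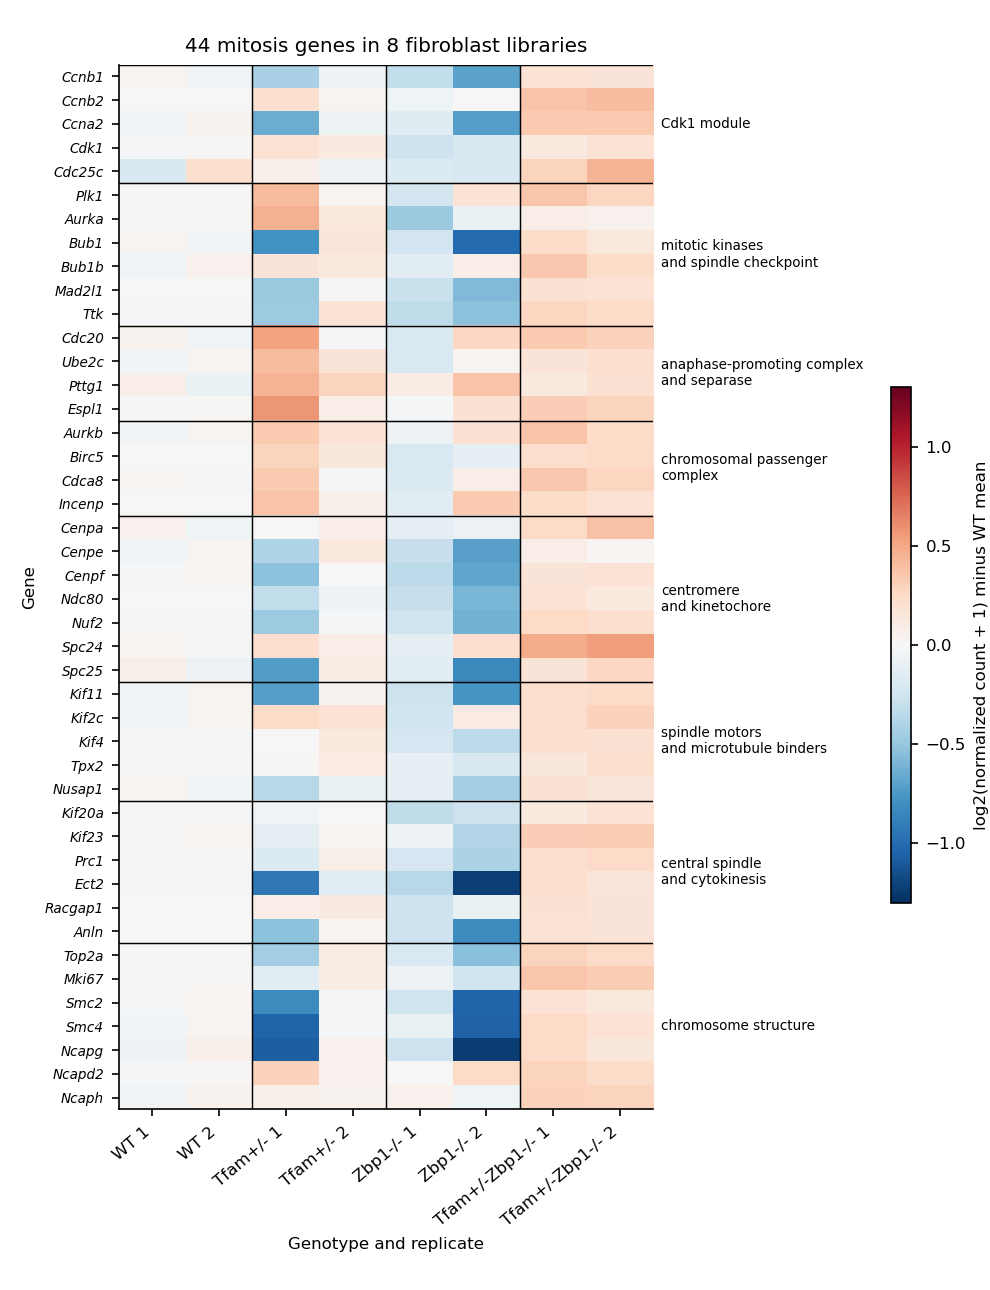
Level of each of the 44 mitosis genes in each of the 8 libraries, as log2(normalized count + 1) minus the WT mean, with red above and blue below WT. Rows are grouped by role and columns by genotype, and the columns Tfam+/- 1 and Zbp1-/- 2 are the shifted libraries. The Tfam+/-Zbp1-/- columns are red or near white throughout, and 29 of the 44 genes (14.9% of all genes tested) are higher there than in every other library.

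Levels per kilobase were taken over each gene's longest annotated protein-coding transcript, which may not be the one expressed. On this measure the most abundant members in WT were Top2a at 1008, Smc4 at 816 and Anln at 746 normalized counts. The lowest were Cdc25c at 98.0 and Espl1 at 68.5. All 44 reached the level needed to be tested, a mean of 10 or more across the libraries. As a share of the library total, their sum was 0.348% and 0.352% (WT), 0.307% and 0.361% (Tfam+/-), 0.286% and 0.253% (Zbp1-/-) and 0.392% and 0.388% (Tfam+/-Zbp1-/-). The Zbp1-/- libraries had the lowest shares and the Tfam+/-Zbp1-/- libraries the highest, with no overlap with any other genotype.

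The comparison of Tfam+/-Zbp1-/- with Zbp1-/- cells measures the loss of 1 Tfam allele where Zbp1 is absent. The mitosis genes stood higher in Tfam+/-Zbp1-/- cells: 43 of 44 had a positive log2 change, against 52.4% of all genes, with a median of 0.48 against 0.02 for all. In 41 of 44 both Tfam+/-Zbp1-/- libraries lay above both Zbp1-/- libraries, which held for 26.2% of all genes, and the 3 others were Pttg1, Incenp and Ncapd2. With all 8 libraries and no added term, limma called none of the 44 at an adjusted p under 0.05, against 0.415% of all genes in either direction. The lowest adjusted p was 0.119, for Kif20a, and 31 of 44 had an unadjusted p under 0.05, against 12.3% of all genes. The shifts inside the Zbp1-/- and Tfam+/- pairs both enter the spread of this fit.

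A fit with 1 added term shared by the 2 shifted libraries called 43 of 44 higher in Tfam+/-Zbp1-/- than in Zbp1-/- cells and none lower, against 12.8% of all genes called higher. The fit of the other 6 libraries also called 43 higher, against 12.6%. In that fit Tfam+/- and Zbp1-/- have 1 library each, assumed to vary like the other genotypes. Without any term, but after subtracting from each library its curve of deviation against GC, 33 were called higher, against 3.31%, and all 33 were among the 43 of each other fit. Pttg1 was called in none of these 3 fits. The 22 genes of low GC and the 22 of high GC had medians of 0.68 and 0.36 without the term and of 0.43 and 0.43 with it.

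**Figure D4:**
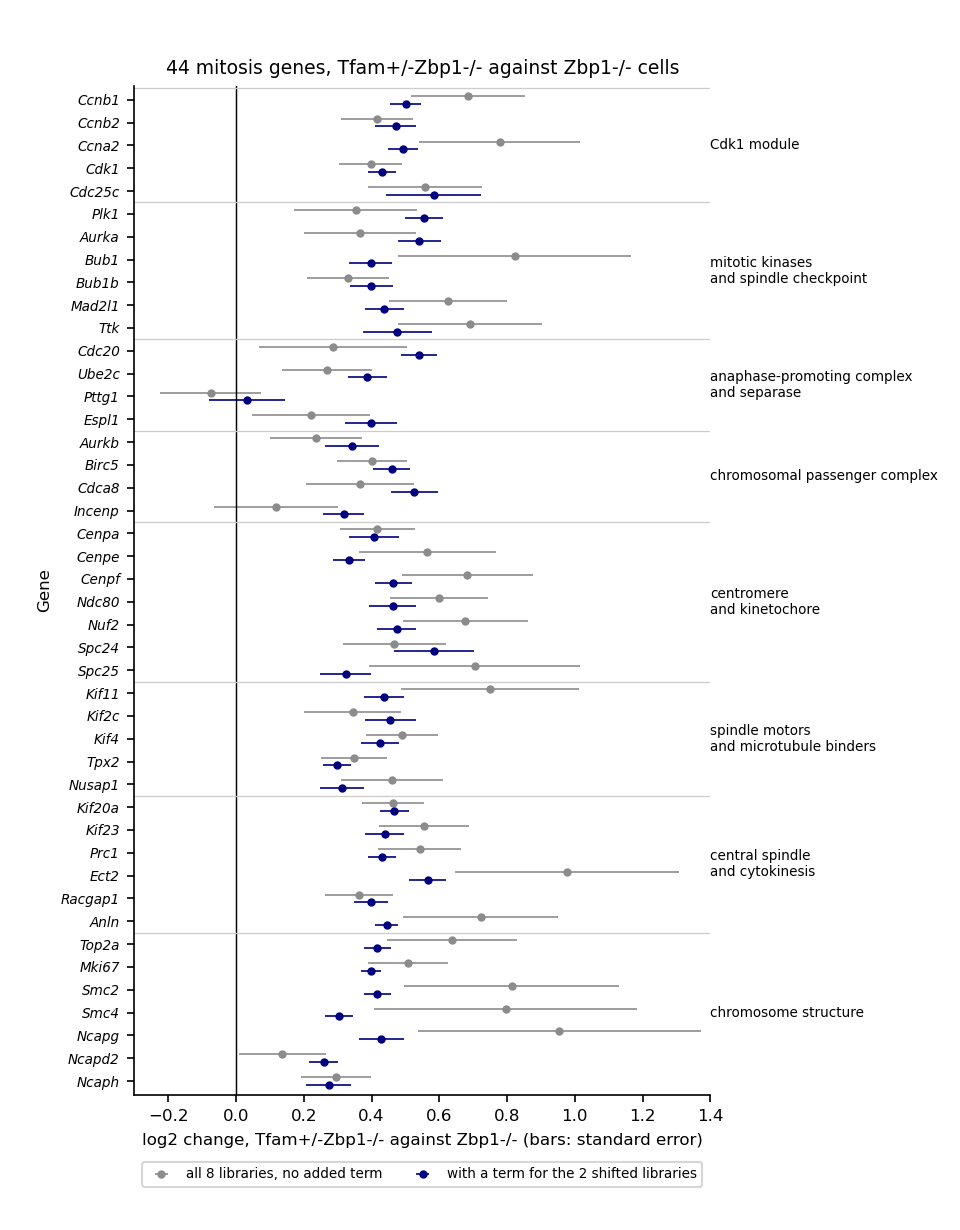
Log2 change of each of the 44 mitosis genes in Tfam+/-Zbp1-/- against Zbp1-/- cells, with bars of 1 standard error. Grey points are from all 8 libraries with no added term and blue points from the fit with a term for the shifted libraries. With the term the 43 genes other than Pttg1 sit between 0.26 and 0.58 with shorter bars.

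Among the genes of the Cdk1 module all 5 were called with the shared term, at a median of 0.49. Ccnb1, the B-type cyclin that activates Cdk1 at entry into mitosis, was at 1337 and 1028 in Zbp1-/-, against 1889 and 1883 in Tfam+/-Zbp1-/-, with 1714 and 1629 in WT. The Zbp1-/- libraries lay below WT and the Tfam+/-Zbp1-/- libraries above it. Its log2 change against Zbp1-/- was 0.69 ± 0.17 (SE) without the term (adjusted p = 0.179) and 0.50 ± 0.05 with it (adjusted p = 1.59e-07), a 1.42-fold difference. Ccna2, cyclin A2, changed by 0.49 ± 0.04 with the term, and Cdk1 itself by 0.43 ± 0.04. Cdk1 was at 1595 and 1660 in Zbp1-/-, against 2098 and 2192 in Tfam+/-Zbp1-/-, close together within each genotype. Without the term its estimate was much the same (0.40 ± 0.09, adjusted p = 0.162), and its transcript had 47.8% GC.

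All 6 mitotic kinases and spindle checkpoint genes were called with the term, at a median of 0.46. Plk1, a kinase of mitotic entry and spindle assembly, was at 690 and 922 in Zbp1-/-, against 1048 and 991 in Tfam+/-Zbp1-/-. Its change was 0.35 ± 0.18 without the term (adjusted p = 0.486) and 0.55 ± 0.06 with it (adjusted p = 6.22e-07). Aurka, the spindle pole kinase, was at 450 and 587 in Zbp1-/-, below 621 and 637 in WT, and at 670 and 656 in Tfam+/-Zbp1-/-. It rose by 0.54 ± 0.06 with the term. Bub1, a checkpoint kinase at the kinetochore, was at 827 and 489 in Zbp1-/-, far apart, and its change was 0.82 ± 0.34 without the term and 0.40 ± 0.06 with it.

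Genes of the anaphase-promoting complex and separase had the smallest change without the term, a median of 0.25 with none of 4 at an unadjusted p under 0.05. With the term, 3 of 4 were called. Cdc20, the activator that targets cyclin B and securin for destruction, was at 927 and 1279 in Zbp1-/-, against 1345 and 1310 in Tfam+/-Zbp1-/-. Its change was 0.29 ± 0.22 without the term and 0.54 ± 0.05 with it (adjusted p = 3.37e-07). Pttg1, securin itself, was at 202 and 244 in Zbp1-/-, against 205 and 217 in Tfam+/-Zbp1-/-, so its libraries overlapped. Its change was -0.08 ± 0.15 without the term and 0.03 ± 0.11 with it (adjusted p = 0.871).

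The 4 chromosomal passenger genes, which correct faulty attachments to the spindle and later guide cytokinesis, were all called with the term, at a median of 0.40. Cdca8 (borealin) rose by 0.53 ± 0.07 and Birc5 (survivin) by 0.46 ± 0.06. All 7 centromere and kinetochore genes were called, at a median of 0.46. Spc24, an Ndc80 complex subunit, was at 153 and 194 in Zbp1-/-, against 235 and 243 in Tfam+/-Zbp1-/-, and rose by 0.58 ± 0.12 (adjusted p = 0.00113). Cenpe, the kinetochore motor, rose by 0.33 ± 0.05 and stood near WT, at 2149 and 2058 against 1962 and 2075.

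The 5 spindle motors and microtubule binders and the 6 genes of the central spindle and cytokinesis were all called with the term, at medians of 0.42 and 0.44. Kif11, the motor that pushes the spindle poles apart, was at 1355 and 965 in Zbp1-/-, against 1910 and 1937 in Tfam+/-Zbp1-/-. It rose by 0.44 ± 0.06 (adjusted p = 1.69e-05), against 0.75 ± 0.26 without the term. Kif20a, a motor of the central spindle, was at 1731 and 1794 in Zbp1-/-, against 2376 and 2484 in Tfam+/-Zbp1-/-, and changed alike in both fits, by 0.46 ± 0.09 without the term and 0.47 ± 0.04 with it. Its Zbp1-/- libraries lay close together and below all others. Anln, the furrow scaffold anillin, and Ect2 rose by 0.44 ± 0.03 and 0.57 ± 0.05 with the term.

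All 7 chromosome structure genes were called with the term, at a median of 0.40. Mki67, the coat of mitotic chromosomes used as a proliferation marker, was at 5285 and 4611 in Zbp1-/-, against 7080 and 6958 in Tfam+/-Zbp1-/-. It rose by 0.40 ± 0.03 (adjusted p = 1.84e-08), a 1.32-fold difference, and by 0.51 ± 0.12 without the term (adjusted p = 0.162). Top2a, the DNA topoisomerase that untangles sister chromatids, rose by 0.42 ± 0.04. The condensin subunits Ncapd2 (0.26 ± 0.04) and Ncaph (0.27 ± 0.07) had the smallest changes among the genes called.

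Zbp1-/- cells against WT measure the loss of Zbp1 with Tfam intact. Mitosis genes stood lower in Zbp1-/- cells: 37 of 44 had a negative change, with a median of -0.26 on the authors' scale while all genes had a median of 0.11 and 60.6% of them were above 0. Both Zbp1-/- libraries lay below both WT libraries in 30 of 44 genes, against 16.8% of all genes. None was called in the fit of all 8 libraries, against 1.06% of all genes in either direction, and the lowest adjusted p was 0.166. Unadjusted, 11 of 44 had a p under 0.05, against 19.7% of all genes.

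With the shared term 26 of 44 were called lower in Zbp1-/- than in WT and none higher, against 7.01% of all genes called lower. The 6 libraries also gave 26 lower, against 7.09%, of which 24 were the same genes, and the correction for GC gave 4 lower, against 1.79%. These 4, called in each of the fits just named, were Ccnb1, Aurka, Kif20a and Ect2. Aurka fell by 0.47 ± 0.06 on the log2 scale (adjusted p = 1.57e-05), Ect2 by 0.38 ± 0.05, Ccnb1 by 0.33 ± 0.05 and Kif20a by 0.31 ± 0.04. By role, 5 of 6 central spindle genes, 4 of 6 kinases and checkpoint genes, 4 of 7 kinetochore genes, 3 of 5 of the Cdk1 module and 3 of 5 spindle motors and microtubule binders were called lower, as were 3 of 7 chromosome structure genes and 2 of 4 in each of the anaphase and passenger groups. The changes of Mki67, Ncaph and Ncapd2 did not pass the test, at -0.05 ± 0.03, 0.02 ± 0.07 and 0.01 ± 0.04. With the term and TMM rescaling together, 38 of 44 were called lower, against 15.8% of all genes, and the median was -0.32 instead of -0.21.

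**Figure D5:**
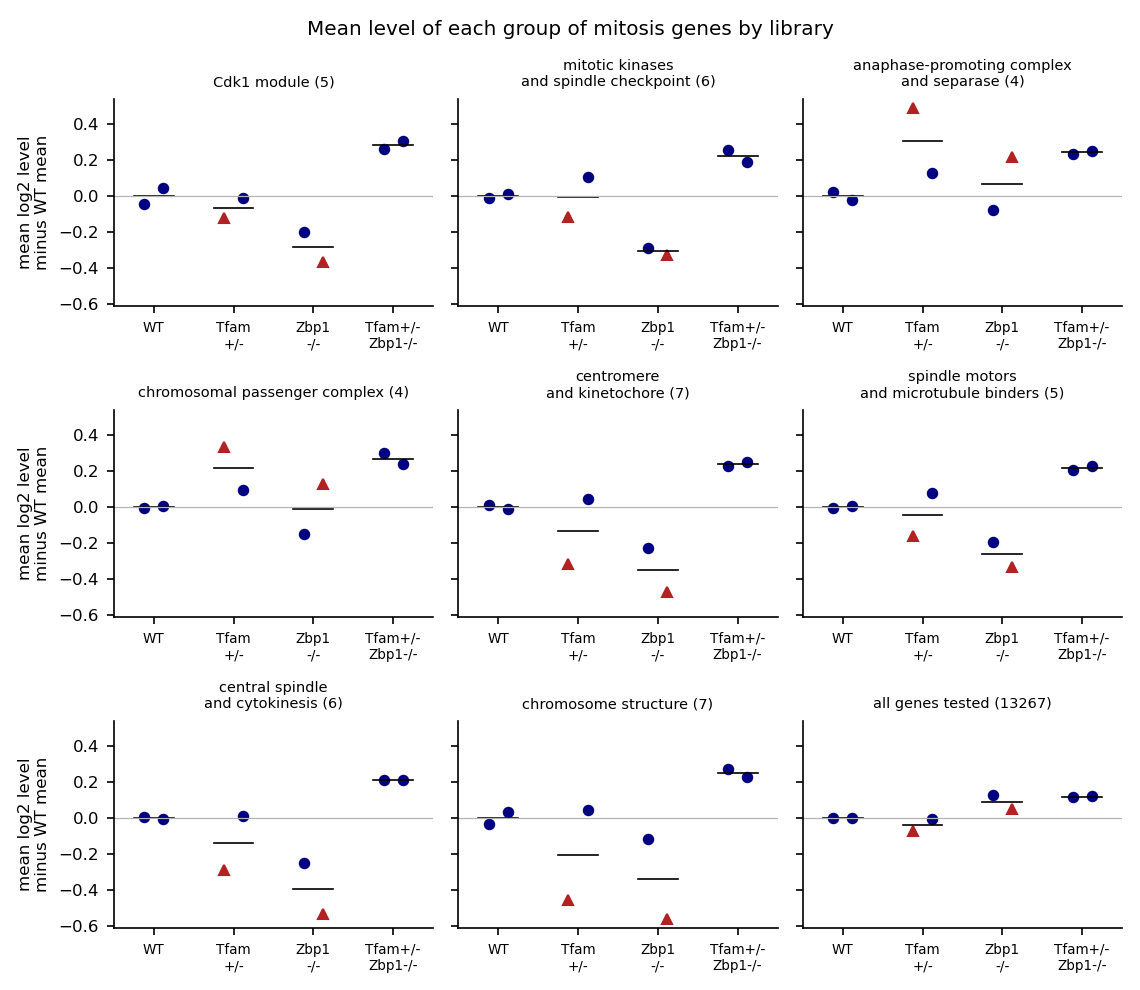
Mean log2(normalized count + 1) of each role group and of all genes tested, per library, minus the WT mean, with the number of genes in brackets. Red triangles are the shifted libraries Tfam+/- replicate 1 and Zbp1-/- replicate 2, blue circles the other 6, and black lines genotype means. In all 8 role groups the unshifted Zbp1-/- library lies below the WT mean and both Tfam+/-Zbp1-/- libraries above it. The shifted Zbp1-/- library lies above the WT mean in the anaphase and passenger groups and below it in the others. The mean of all genes is higher than WT in every Zbp1-/- and Tfam+/-Zbp1-/- library.

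The changes of Tfam+/-Zbp1-/- cells against WT involve no shifted library. Their error does, because the fit of all 8 libraries takes 1 spread over the 4 genotypes. All 44 genes had a positive change, with a median of 0.22 where the median of all genes was 0.12 and 75.8% of all genes were above 0. In 43 of 44, all but Cenpe, both Tfam+/-Zbp1-/- libraries lay above both WT libraries, against 58.8% of all genes. None was called with all 8 libraries and no term, against 1.38% of all genes, with a lowest adjusted p of 0.178, for Ccnb2, and 7 at an unadjusted p under 0.05, against 12.6%. The shared term gave 40 called higher, against 35.3% of all genes, the 6 libraries 41, against 37.1%, and the GC correction 11, against 6.63%. Spc24 changed by 0.51 ± 0.10, Ccnb2, a B-type cyclin, by 0.38 ± 0.05 and Mki67 by 0.34 ± 0.03, while Cenpe (0.06 ± 0.04), Aurka (0.07 ± 0.06), Ndc80 and Pttg1 were not called. This count rested on the scale: with the term and rescaling together 15 were called higher, against 12.3% of all genes, the median was 0.11, and Cenpe (-0.06) and Aurka (-0.04) turned negative. Ccna2, Ccnb2, Spc24 and Mki67 were still called, at 0.22, 0.27, 0.40 and 0.23.

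Tfam+/-Zbp1-/- cells against Tfam+/- cells measure the loss of Zbp1 where 1 Tfam allele is missing. There 39 of 44 genes had a positive change, with a median of 0.27 against 0.14 for all genes, of which 67.8% were above 0. The libraries did not overlap in 29 of 44 that were higher, against 42.4%, and in 2 that were lower, against 13.5%. No member was called with all 8 libraries, against 5.64% of all genes in either direction, and 9 had an unadjusted p under 0.05, against 20.8%. The fit with the shared term called 29 higher, against 35.4% of all genes, led by Spc24 at 0.48 and Ccna2 at 0.41. The 6 libraries gave 28, against 33.7%, and the GC correction 18, against 19.2%. With the term and rescaling together 9 were called higher and 2 lower, against 15.5% and 18.0%. The members' share of calls higher was near that of all genes with rescaling. The lower ones were Aurka (-0.18) and Cenpe (-0.16).

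Tfam+/- cells against WT showed small changes whose direction depended on the shifted library. With all 8 libraries and no term 21 of 44 genes were above 0, against 48.7% of all genes, with a median of -0.01 for both the members and all genes. Above 0 were 29 with the shared term (48.4% of all genes, median 0.06), 30 in the 6 libraries (48.6%, median 0.06) and 33 with the GC correction (41.8%, median 0.05). In the fit of all 8 libraries none was called, against 0.731% of all genes, and 1 had an unadjusted p under 0.05, against 8.74%. The range ran from -0.54 for Ect2 to 0.37 for Pttg1. Genes of low GC had a median of -0.24 and those of high GC one of 0.16. Pttg1 did not follow this split: at 46.0% GC it was among the 22 genes of lowest GC. Both its Tfam+/- libraries (257 and 230) lay above both WT libraries (200 and 177). With the shared term the range was -0.13 to 0.26, none was called against 15.6% of all genes, and the lowest adjusted p was 0.054. The 6 libraries gave 1 call, Mki67 at 0.10, against 15.4% of all genes, the term with rescaling gave 3 (Cdk1, Ube2c and Birc5, at 0.13, 0.18 and 0.17), against 15.6%, and the GC correction gave none, against 3.09%.

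The test of the interaction asks whether losing 1 Tfam allele changed the genes by a different amount without Zbp1 than with it. It takes in all 4 genotypes, so it shares libraries with each comparison above. The interaction was positive in 38 of 44 genes, as in 6635 of the 13267 genes tested, with a median of 0.51 against 0.00. None was called with all 8 libraries, against 0.663% of all genes, at a lowest adjusted p of 0.16, and 21 had an unadjusted p under 0.05, against 16.0%. With the shared term 33 were called positive and none negative, against 8.46% called positive, with a median of 0.38. The 6 libraries gave 37, against 9.96%, the GC correction 12, against 2.76%, and the term with rescaling 30, against 7.82%. Ect2 (0.69 ± 0.08), Ccnb1 (0.56 ± 0.07), Ccna2 (0.56 ± 0.07), Cdc20 (0.55 ± 0.08) and Plk1 (0.53 ± 0.09) were among the largest with the term. Without it these were 1.52 ± 0.47, 0.93 ± 0.24, 1.13 ± 0.34, 0.04 ± 0.31 and 0.13 ± 0.26, none of them called. Those of Cdc20 and Plk1 turned negative without Tfam+/- replicate 2 (-0.24 and -0.059) or Zbp1-/- replicate 1 (-0.19 and -0.078), and that of Cdc20 also without WT replicate 1 (-0.0036). Pttg1 had a negative value, -0.22 ± 0.17, that was not called.

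Averaged over both Zbp1 genotypes, cells with 1 Tfam allele lost had a positive change in all 44 genes, against 50.6% of all genes. The median was 0.23 against 0.00. The 2 comparisons averaged were unlike: the median was 0.48 in Tfam+/-Zbp1-/- against Zbp1-/- cells and -0.01 in Tfam+/- against WT. For the average none of the 44 was called with all 8 libraries, against 0.626%, with a lowest adjusted p of 0.208. Unadjusted, 18 had a p under 0.05, against 7.85%. With the term 43 were called higher, against 13.7%, and with the GC correction 20, against 2.08%. Each average of this kind holds the 2 shifted libraries on opposite sides, so its estimate does not depend on the shared term, and only its error does. Averaged over both Tfam genotypes, cells lacking Zbp1 had 24 of 44 above 0, against 74.4% of all genes, and a median of 0.02 against 0.12. None was called, against 6.96% of all genes, and none had an unadjusted p under 0.05, against 23.5%. With the term 7 were called higher, against 46.7%, and 5 lower, against 10.9%, the former including Ccna2 (0.13) and Mki67 (0.10), and the latter including Aurka (-0.26) and Cenpe (-0.16). The 6 libraries gave 7 higher, against 41.3%, and 6 lower, against 9.94%, and the GC correction 1 of each, against 22.8% and 5.57%. With term and rescaling the split was 0 higher and 23 lower, against 20.3% and 24.0%.

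The genes around the 44 were read from 5 further lists. Of the list of other mitosis genes 65 were tested, and with the shared term 49 were called higher in Tfam+/-Zbp1-/- than in Zbp1-/- cells and none lower, against 12.8% and 11% of all genes. Their median was 0.36, and the largest changes called were in the centromere gene Cenpw (0.73 ± 0.16), in Troap (0.59 ± 0.14) and in Cdca3 (0.57 ± 0.07), a trigger of mitotic entry. Of 38 S phase genes 32 were called higher and none lower, against the same 12.8% and 11%, at a median of 0.38, led by the replication genes Gins1 (0.59 ± 0.15), Rfc4 (0.56 ± 0.11) and Mcm5 (0.54 ± 0.05). Without the term no gene of either list was called, with medians of 0.42 and 0.38. With the term the 27 mitosis genes with a CHR match and the 9 matched promoters without one had medians of 0.43 and 0.40 in this comparison. Without the term these medians were 0.49 and 0.56, in the reverse order.

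The regulators of these genes had a median of 0.10 in this comparison with the term. Foxm1, the activator of late cell cycle genes, stood at 947 and 1011 (WT), 1251 and 1007 (Tfam+/-), 970 and 1078 (Zbp1-/-) and 1150 and 1137 (Tfam+/-Zbp1-/-). Its levels overlapped between most genotypes, and it rose by 0.28 ± 0.06 against Zbp1-/- with the term (adjusted p = 0.00138). Mybl2, which encodes B-Myb, stood at 250 and 274 (WT), 377 and 320 (Tfam+/-), 231 and 326 (Zbp1-/-) and 290 and 277 (Tfam+/-Zbp1-/-), and its change of 0.23 ± 0.10 was not called (adjusted p = 0.112). Of all 19 regulators tested, 7 were called higher against Zbp1-/- and none lower with the term, against 12.8% and 11% of all genes, led by E2f7 (0.52 ± 0.09), Lin9 and E2f8. Without the term none was called, and the median was 0.22.

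Among 17 CDK inhibitors and p53 targets, single genes changed without any added term. Cdkn1c, which encodes the inhibitor p57, stood at 1593 and 1752 (WT), 1328 and 1217 (Tfam+/-), 2360 and 2569 (Zbp1-/-) and 1374 and 1429 (Tfam+/-Zbp1-/-). It was highest in the genotype where the mitosis genes were lowest, and no genotype overlapped Zbp1-/-. Against Zbp1-/- it fell by 0.81 ± 0.11 on the log2 scale in Tfam+/-Zbp1-/- cells (adjusted p = 0.0461), a call that was lost when any 1 of the 6 libraries of WT, Zbp1-/- or Tfam+/-Zbp1-/- was left out (adjusted p of 0.108 to 0.517). Cdkn2c, which encodes the inhibitor p18, stood at 252 and 297 (WT), 207 and 203 (Tfam+/-), 301 and 263 (Zbp1-/-) and 377 and 427 (Tfam+/-Zbp1-/-), and rose by 0.96 ± 0.14 in Tfam+/-Zbp1-/- against Tfam+/- cells (adjusted p = 0.0132). Without replicate 1 or 2 of Tfam+/-Zbp1-/- its adjusted p was 0.1 or 0.147. Its highest level was in the genotype where the mitosis genes were also highest. Cdkn1a, the p53 target p21, stood at 6611 and 6481 (WT), 8870 and 6988 (Tfam+/-), 7529 and 8608 (Zbp1-/-) and 6763 and 6716 (Tfam+/-Zbp1-/-). Cdkn2a, the senescence locus, was at 483 and 553, 834 and 478, 569 and 767, and 537 and 498 in the same order. Both were highest in the shifted libraries. With the shared term Cdkn1a was lower by 0.12 ± 0.03 in Tfam+/-Zbp1-/- than in Zbp1-/- cells (adjusted p = 0.0137), and Cdkn2a did not pass the test (-0.04 ± 0.09, adjusted p = 0.775). In that fit 8 of the 17 were called lower in Tfam+/-Zbp1-/- than in Zbp1-/- cells, against 11% of all genes, and 3 higher, against 12.8%, at a median of -0.12. Of 7 G1 cyclins and kinases, which act before DNA synthesis, 1 was called higher there and 1 lower, shares near the 12.8% and 11% of all genes: the D-type cyclins Ccnd1 rose by 0.23 ± 0.03 and Ccnd2 fell by 0.18 ± 0.02. Without the term none of the 7 was called and 1 had an unadjusted p under 0.05.

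Markers of another cell type moved with genotype beside these results. All 8 leukocyte markers fixed for the check were tested, none was at 0, and their sum was 4341 to 4418 in WT, 5035 to 5543 in Tfam+/-, 2492 to 2752 in Zbp1-/- and 2227 to 2228 in Tfam+/-Zbp1-/-, led by Lyz2. The sum differed with Zbp1 genotype. It was also lower in Tfam+/-Zbp1-/- than in Zbp1-/- cells, with no overlap. Csf1r stood at 353 and 315 in Zbp1-/- against 237 and 243 in Tfam+/-Zbp1-/-, and Laptm5 at 201 and 198 against 139 and 140. With no added term 6 of the 8 markers were lower in that comparison and 2 higher. None was called, against 0.415% of all genes in either direction. Other comparisons of that fit did call markers lower. In Tfam+/-Zbp1-/- cells 6 of the 8 were called lower against Tfam+/- and 3 against WT, against 2.32% and 0.482% of all genes. In Zbp1-/- against WT it was 1, against 0.166%, and for Zbp1 loss averaged 6, against 1.82%. The remaining comparisons had no call. The part of these markers in the results was not tested. The 11 fibroblast markers, none at 0, summed to 535300 to 536861 in WT, 500781 to 605962 in Tfam+/-, 629640 to 737258 in Zbp1-/- and 567324 to 574407 in Tfam+/-Zbp1-/-. Their sum was highest where the mitosis genes were lowest. With no added term 10 of the 11 were higher in Zbp1-/- than in WT, against 60.6% of all genes, and 1, Fap, was lower. In that fit 9 of the 11 were lower in Tfam+/-Zbp1-/- than in Zbp1-/- cells, at a median of -0.35. The other 2 were higher, while 52.4% of all genes were higher. Vim, 1 of these 2, was highest in Tfam+/-Zbp1-/- cells (74720 and 73132). In the order WT, Tfam+/-, Zbp1-/- and Tfam+/-Zbp1-/-, the 6 epithelial markers, 3 of them tested, summed to 261 to 284, 326 to 493, 291 to 380 and 186 to 187. The 5 neural markers, 4 of them tested, summed to 2877 to 2981, 2924 to 3327, 1979 to 2502 and 1846 to 1866. The endothelial markers, 2 of 4 tested, summed to 272 to 299, 326 to 386, 233 to 272 and 302 to 318, and the muscle markers, of which 1 of 5 was tested (Des), to 564 to 611, 598 to 917, 430 to 632 and 366 to 372. The part of these lists in the results was not tested either. Of the 4 erythroid markers 3 were at 0 in every library.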

How the data were processed

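RNA was sequenced from 8 libraries of mouse embryonic fibroblasts. The values used are the authors' deposited normalized counts per gene, a signal scaled between libraries, from 1 table for the series. Alignment used STAR 2.6.1a and quantification Salmon, per the submitters' processing notes, within applications that the series' design text names together with mm10 RefSeq genes. How genes were counted, on which strand and with what scaling was not given in the sources used here. Steps among the low values did not return whole reads (22.2% to 35.0% of low values lay within 0.01 of a whole multiple), so no count test was run and the depth in reads is unknown. Among the 44 genes, 8 overlap another protein-coding gene, with which reads may be shared.

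Genes whose mean across libraries reached 10 (13267) were tested on log2(value + 1) with limma 3.58.1 in R 4.3.3 (variance prior with trend), with a mean per genotype and 8 contrasts from 1 fit. All tests were two-sided, with Benjamini-Hochberg adjustment over all genes tested, and a gene was called at an adjusted p under 0.05. With 2 libraries on each side, the smallest p of an exact permutation test is 0.333. Fold changes on the log2(value + 1) scale understate the change of low genes. The scripts were tested on simulated data.

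The alternatives were a pseudocount of 5 or 0.1, no filter or one at a mean of 50, TMM rescaling (trimmed mean of M-values), a prior without trend, the replicate number as a block, 1 term shared by Tfam+/- replicate 1 and Zbp1-/- replicate 2, the 6 other libraries, and each library left out in turn. A loess correction for GC (span of 0.5), alone or with the block, and the shared term with rescaling were chosen after seeing the data. GC values and transcript lengths are those of each gene's longest protein-coding transcript in GENCODE M21, whichever transcript the cells express. Gene positions (mm10) come from RefSeq's GRCm38.p6 annotation, and 12733 of the tested genes had a GC value.

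The mitosis genes and the lists of other genes were chosen with earlier results of these data known, as was the shared term, so no count over a list is independent evidence. All 44 could be named. Values in each library were due for members called with all 8 libraries and no term, and otherwise for the 3 of largest mean absolute change. From the other lists up to 3 called genes per comparison were named, with Foxm1, Mybl2, Cdkn1a and Cdkn2a always.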

Additional observations from a re-analysis of the deposited data

How the results depend on the processing

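With all 8 libraries and no added term, 0 of the 44 genes were called in each of the 8 comparisons, and 0 remained the count under either other pseudocount, either other filter, rescaling alone and the prior without trend. Leaving out each library in turn gave 0, except 0 to 1 for Tfam+/-Zbp1-/- against Tfam+/- (1 without Tfam+/- replicate 2). The shared term called 26 in Zbp1-/- against WT, 40 in Tfam+/-Zbp1-/- against WT, 29 in Tfam+/-Zbp1-/- against Tfam+/-, 43 in Tfam+/-Zbp1-/- against Zbp1-/-, 33 for the interaction, 12 for Zbp1 loss averaged and 43 for Tfam loss averaged. In the same order the 6 libraries gave 26, 41, 28, 43, 37, 13 and 41, with 1 in Tfam+/- against WT. The GC correction, chosen after seeing the data, gave 4, 11, 18, 33, 12, 2 and 20, and the shared term with rescaling, also chosen after seeing the data, 38, 15, 11, 43, 30, 23 and 43, with 3 in Tfam+/- against WT. The prior degrees of freedom were 2.775 without the term and 15.086 with it, against 4 and 3 residual ones, so the counts with the term rest on a spread estimated mostly over all genes.

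The replicate numbers did not pair the libraries: the correlation of replicate 1 minus 2 between genotypes was -0.698 to 0.0591. As a replicate block they gave 0 calls in all 8 comparisons. The replicate block with GC correction gave 3 in Tfam+/-Zbp1-/- against WT, 10 in Tfam+/-Zbp1-/- against Tfam+/-, 17 in Tfam+/-Zbp1-/- against Zbp1-/- and 2 for the interaction.

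Among 71 changes of named genes, 14 crossed zero somewhere. Ranges cover single libraries left out, all else as with no added term. In Tfam+/-Zbp1-/- against Zbp1-/-, Pttg1 (-0.08) became 0.033 with the shared term, 0.031 with term and rescaling and 0.061 in the 6 libraries, and ran from -0.21 to 0.061, while Mybl2 (0.05) ran from -0.20 to 0.29 and Ccnd2 (-0.07) from -0.19 to 0.047. In Zbp1-/- against WT, Ncaph (-0.0001) was 0.021 with the term, 0.053 in the 6 libraries and 0.0355 with the GC correction, block or not, and ran from -0.053 to 0.053, while Ncapd2 (0.13) was -0.053 with the GC correction, block or not, and -0.11 with term and rescaling. In that comparison Trp53inp1 (-0.25) was 0.39 with the term, 0.41 in the 6 libraries, 0.27 with the GC correction, block or not, and 0.28 with term and rescaling, and ran from -0.91 to 0.41. Cenpe (0.06) and Aurka (0.07) in Tfam+/-Zbp1-/- against WT became -0.058 and -0.043 after rescaling, term or not. Cenpe against Tfam+/- (0.19) was -0.038 with the term, -0.070 in the 6 libraries, -0.0019 with the GC correction, block or not, and -0.16 with term and rescaling, and ran from -0.070 to 0.46. Mki67 in Tfam+/- against WT (-0.02) was 0.084 with the term, 0.095 in the 6 libraries, 0.064 with the GC correction, block or not, and 0.092 with term and rescaling, and ran from -0.15 to 0.095. The interaction of Cdc20 (0.04) ran from -0.24 to 0.32 and that of Plk1 (0.13) from -0.078 to 0.34. For Zbp1 loss averaged, Ccna2 (0.13) ran from -0.017 to 0.28, and Mki67 (0.10) became -0.018 after rescaling, term or not. Cdkn1c, called against Zbp1-/-, was also lost with no filter (adjusted p = 0.0599), with the prior without trend (0.069), with the block (0.212) and with the block and GC correction (0.0957). Beyond the values given, the cause was not tested.

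The depth in reads is unknown, so these values carry no counting error, and 2 libraries per genotype limit the precision.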

Other observations

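In Zbp1-/- cells 8 of the 17 CDK inhibitors and p53 targets were called higher than in WT with the shared term and none lower, against 28.5% of all genes called higher. Trp53inp1, a p53 target, was at 4097 and 4238 in WT and 5548 and 2218 in Zbp1-/-, the second of these from the shifted library, and its change was 0.39 ± 0.04 with the term and -0.25 ± 0.50 without it. Cdkn1c changed by 0.50 ± 0.05 with the term and by 0.56 ± 0.11 without it (adjusted p = 0.0747). With the term and rescaling together the split was 5 higher and 3 lower, against 12.6% and 15.8% of all genes. In the same comparison with the term 11 of 38 S phase genes were called lower, against 7.01% of all genes, and none higher, against 28.5%, among them the replication cyclin Ccne2 (-0.30 ± 0.08), and with rescaling as well 26 were lower, against 15.8%.

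Myc, a transcription factor that drives growth and entry into the cycle, had a pattern of its own. It stood at 680 and 643 (WT), 996 and 954 (Tfam+/-), 639 and 568 (Zbp1-/-) and 707 and 669.8 (Tfam+/-Zbp1-/-). Both Tfam+/- libraries, the shifted one included, lay above all others, a genotype in which few or no mitosis genes were called against WT. Its change against WT was 0.56 ± 0.11 without the term (adjusted p = 0.125) and 0.59 ± 0.07 with it (adjusted p = 6.78e-06). Myc was chosen after its values were seen.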
